A study of Rattus norvegicus with 4 samples.

Results

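The genes of insulin and insulin-like growth factor (IGF) receptor signaling described here are Insr, Igf1r, Igf2, Igf2r, Igfbp4, Irs1, Irs2, Pik3r1, Foxo1 and Gsk3b. They were chosen by name, as 10 of the 23360 gene symbols in the data, with earlier results of these data known. The RNA came from the INS-1 832/3 line, insulin-secreting cells of a rat insulinoma into which a human insulin gene was introduced. The comparison is between 2 cultures grown as standard 2D monolayer and 2 cultures that were 3D-bioprinted in GelXA LAMININK 411, a hydrogel used as a bioink. All 4 cultures were at passage 3, were kept in RPMI-1640 with 10% fetal bovine serum and were harvested after 5 days. The cells are a single tumor line in both groups, so the groups model the culture format for that line and not islet tissue.

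Insulin and the IGFs bind related receptor tyrosine kinases on the cell surface. The activated receptor phosphorylates insulin receptor substrate (IRS) adaptors, which recruit phosphoinositide 3-kinase (PI3K). PI3K in turn activates AKT, a kinase that inhibits GSK3 and keeps FOXO transcription factors out of the nucleus. In beta cells the same pathway is known for its part in growth, survival and the maintenance of cell identity, with IRS2 as the adaptor most closely tied to beta-cell mass.

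Levels are given as transcripts per 1000000 transcripts (TPM), summed over the transcripts listed for a gene. TPM are per length and sum to 1000000 in each sample, so levels of different genes can be set side by side. They carry no read depth, so the counting error of a value is unknown. In each group n is 2, and the smallest two-sided p of an exact permutation test on 1 gene is 0.333. Calls of difference therefore come from limma, which shares its estimate of spread across the 11960 genes whose TPM averaged 1 or more over the 4 cultures. The difference is that of log2(TPM + 1), 3D minus 2D, after scaling between samples with factors from 0.960 to 1.02. A gene was called at an adjusted p (Benjamini-Hochberg over all genes tested) below 0.05. All 20 beta-cell markers found in the files passed the minimum level for testing. Of these markers 7 rose and 1 fell, where 18.5% of all genes tested were called higher and 19.5% lower. Of 28 markers of other cell types, 22 stayed below 1 TPM in every culture, and 12 were listed at 0 throughout. The summed level of those 28 ran from 267 to 302 TPM in monolayer and from 318 to 379 TPM in 3D, and most of it was Thy1 and Gcg. In Gcg, the glucagon gene, the 2D cultures had 41.9 and 73.8 TPM and the 3D cultures 124 and 155 TPM. Its part in the results below was not tested. As the samples are bulk RNA, fewer cells of a kind and less RNA per cell cannot be told apart.

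In 3D-bioprinted cells 7 of the 10 genes rose. These were Insr, Igf1r, Igfbp4, Irs2, Pik3r1, Foxo1 and Gsk3b, with differences from 0.29 to 0.72 on the log2(TPM + 1) scale. Igf2 and Igf2r did not pass the test, and Irs1 lay below the minimum level for testing. No gene of the 10 fell. At an unadjusted p below 0.05 in limma 7 were higher and 0 lower, where 2989 of all 11960 genes tested were higher and 3068 lower. Over all genes tested, 38.0% were called, 18.5% higher and 19.5% lower in 3D. The median difference of the 9 genes tested was 0.53, where that of all genes tested was -0.0031. In each of the 9, both 3D cultures lay above both 2D cultures in TPM as deposited, a separation seen in 41.1% of all genes tested, with 33.2% separated the other way and 74.2% in either direction. The second 2D culture was the lowest of the 4 cultures in 7 of the 9 genes, and in 41.4% of all genes tested. With that culture left out, Insr and Igf1r lost their calls, and the differences of the 9 ran from 0.088 in Igf2r to 0.83 in Igfbp4. With the first 2D culture left out, Insr lost its call, and the differences ran from 0.041 in Igf2 to 0.75 in Igf1r. With the first 3D culture left out, none of the 9 was called, and only 136 genes were called in all. With the second 3D culture left out, Irs2 alone of the 9 was called, among 1037 genes in all. The differences themselves stayed positive in each of these fits, as the plot of differences with each culture left out shows.

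**Figure D1:**
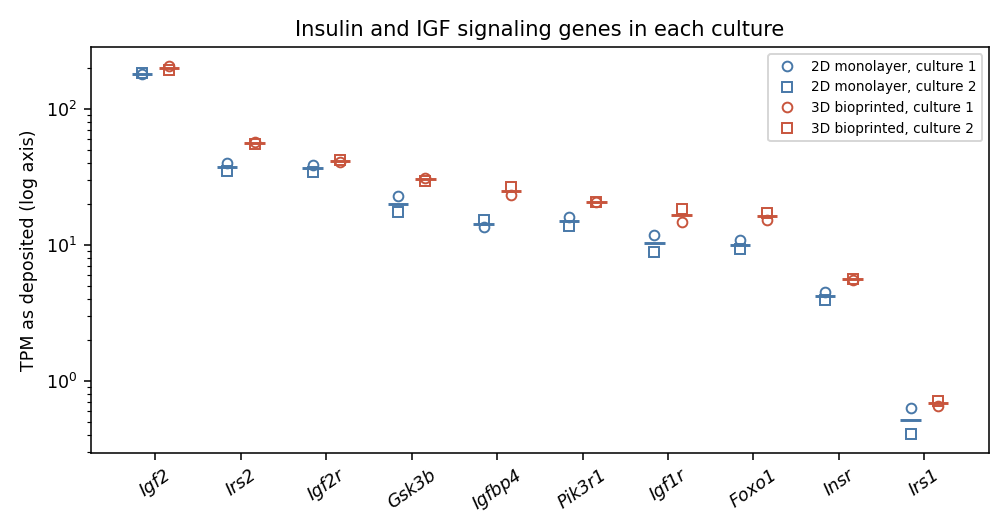
TPM as deposited (y axis, log scale) of the 10 genes (x axis) in each of the 4 cultures. Blue symbols are 2D monolayer and red symbols 3D-bioprinted cultures, circles and squares mark cultures 1 and 2, and horizontal bars are group means. Igf2 is highest, between 179 and 207 TPM, and Irs1 lowest, between 0.408 and 0.721 TPM.

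The 10 genes spanned a wide range of levels. In monolayer the order from high to low was Igf2, Irs2, Igf2r, Gsk3b, Pik3r1, Igfbp4, Igf1r, Foxo1, Insr and Irs1. Irs2 and Igf2r were neighbours in this order whose cultures overlapped, as were Pik3r1 and Igfbp4 and also Igf1r and Foxo1. In 3D the order was the same except that Igfbp4 stood above Pik3r1. Igf1r and Foxo1 were then the only neighbours with overlapping cultures. Among all genes tested, the mean level of Igf2 stood at percentile 94.8 and that of Insr at percentile 20.3.

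Igf2, the ligand of the 10 genes, encodes a growth factor that binds IGF1R and IGF2R. It had 179 and 183 TPM in the 2D cultures and 207 and 192 TPM in the 3D cultures. Both 3D cultures were above both 2D cultures, by less than the test could separate from the spread. The difference was 0.094 on the log2(TPM + 1) scale (95% interval -0.084 to 0.27, adjusted p = 0.328 in limma). The other IGF, Igf1, was nearly absent, at 0.0598 and 0.0653 TPM in 2D and 0.136 and 0.0933 TPM in 3D. Insulin itself is the ligand these cells make in bulk. Ins1 and the human INS gene were not called (adjusted p = 0.680 and 0.374 in limma). Rat Ins2 was the exception among the ligands and fell, from 13237 and 13340 TPM to 8957 and 9326 TPM, a difference of -0.58 (adjusted p = 0.00946 in limma). The 3 sequences are alike, and how the quantification shared reads among them was not tested.

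The files list 4 transcripts for Igf2, and 1 of them was called. The difference between transcripts was not tested. ENSRNOT00000080246.1 had 42.6 and 39.6 TPM in 2D and 57.0 and 55.8 TPM in 3D. This transcript rose by 0.40 (standard error 0.053, adjusted p = 0.0192 in limma over 15020 transcripts), and the call was lost with the second 2D culture or either 3D culture left out (adjusted p up to 0.161). The most abundant transcript, ENSRNOT00000073850.3, had 117 and 125 TPM in 2D and 129 and 113 TPM in 3D, and its groups overlapped (difference -0.046, adjusted p = 0.757 in limma). ENSRNOT00000089171.1 and ENSRNOT00000050760.3 had differences of 0.23 and 0.059 and were not called. As a share of the gene, ENSRNOT00000080246.1 made up 23.8% and 21.7% of Igf2 TPM in the 2D cultures and 27.5% and 29.1% in the 3D cultures. The share of ENSRNOT00000073850.3 went the other way, with 65.1% and 68.5% in 2D and 62.3% and 58.9% in 3D. The shares of neither transcript overlapped between the groups, and they were not tested.

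**Figure D2:**
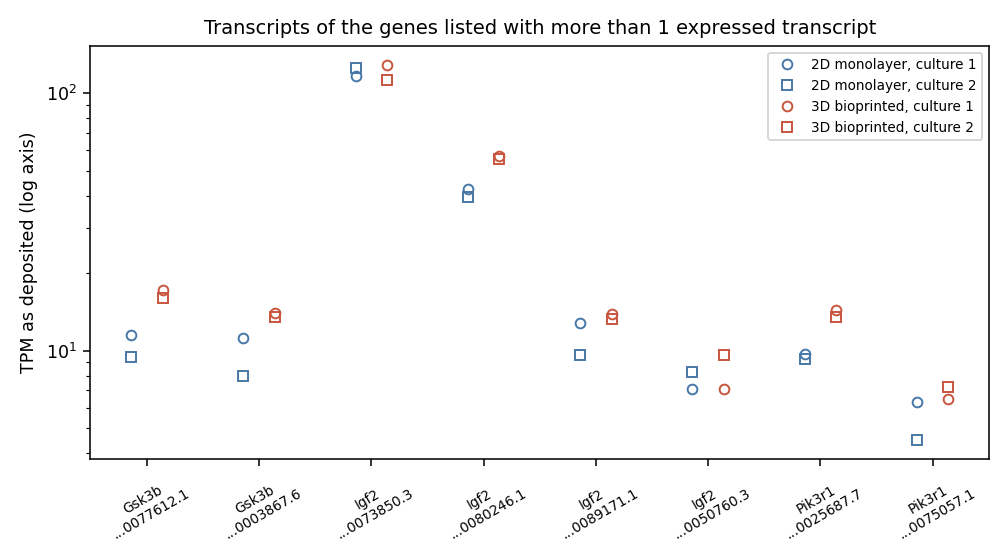
TPM as deposited (y axis, log scale) of each transcript of Gsk3b, Igf2 and Pik3r1 (x axis, named by gene and the last digits of the transcript identifier) in the 4 cultures. Blue is 2D monolayer, red is 3D-bioprinted, and circles and squares mark cultures 1 and 2. In Igf2 the cultures separate in the second most abundant transcript, at 39.6 to 42.6 TPM against 55.8 to 57.0 TPM, and overlap in the most abundant.

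Of the 16 transcripts of the 10 genes, 14 were tested and 6 were called, all higher in 3D. Over all 15020 transcripts tested, 23.1% were called and 11.4% were called higher. Besides that of Igf2, the 6 were the single transcripts of Igfbp4, Irs2 and Foxo1, ENSRNOT00000025687.7 of Pik3r1 and ENSRNOT00000077612.1 of Gsk3b. The single expressed transcripts of Insr and Igf1r, which hold the same values as the genes, had adjusted p-values of 0.0886 and 0.0536 in limma over transcripts. Each of the 6 calls was lost with the second 2D culture or either of the 3D cultures left out. With the first 2D culture left out, the set of called transcripts changed. ENSRNOT00000025687.7 of Pik3r1 lost its call (difference 0.46), and ENSRNOT00000003867.6 of Gsk3b gained one (difference 0.64).

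The receptors were at modest levels. Insr, the insulin receptor, had 4.54 and 3.97 TPM in the 2D cultures and 5.53 and 5.67 TPM in the 3D cultures. The groups did not overlap, and Insr rose by 0.29 (standard error 0.088, adjusted p = 0.0470 in limma). This is the weakest of the 7 calls. It held in 3 of the 11 other settings that gave a value, with adjusted p-values from 0.0326 to 0.185, and blocking on the replicate number gave 0.0603. Igf1r, the main receptor for both IGFs, had 11.8 and 8.86 TPM in 2D and 14.9 and 18.3 TPM in 3D. It was higher than Insr in every culture. Igf1r rose by 0.60 (standard error 0.14, adjusted p = 0.0236 in limma), the largest standard error among the 9 genes tested. With the second 2D culture left out its difference was 0.44 and its adjusted p was 0.0742. The adjusted p ran from 0.0116 to 0.126 over the 12 other settings, and 7 of them kept the call.

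Igf2r, which carries IGF2 to the lysosome and does not signal through a kinase of its own, had 38.7 and 34.6 TPM in 2D and 40.6 and 42.3 TPM in 3D. The 3D cultures were above the 2D cultures, but the difference of 0.13 did not pass the test (95% interval -0.018 to 0.29, adjusted p = 0.131 in limma). The ratio of Igf2r to Igf1r within a culture was 3.27 and 3.90 in 2D and 2.73 and 2.31 in 3D. The ratio of Insr to Igf1r was 0.384 and 0.448 in 2D and 0.372 and 0.309 in 3D. Both ratios were lower in each 3D culture than in each 2D culture, with the smallest exact two-sided permutation p that 4 cultures allow, 0.333 (0.5 after Benjamini-Hochberg adjustment over the 6 ratios compared). Of the 6, those of Igf2r to Igf1r, Pik3r1 to Pik3r2, Gsk3b to Gsk3a and Foxo1 to Foxo4 were added after the values had been seen. Insrr, a receptor of the same family that binds no insulin and responds to alkaline pH, rose from 8.16 and 7.93 TPM to 15.3 and 13.0 TPM (difference 0.70, adjusted p = 0.00716 in limma).

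The 250 bases before the annotated start of the receptor genes are shown to compare the members of the pathway that receive the signal. They come from RefSeq on the assembly GRCr8, which is not rn4, the build the study names for its quantification. Of the 10 genes 9 had a match there, all but Irs2. Igf2 was listed with 2 starts, which makes 10 windows. They were searched on both strands for GTAAACA, the core bound by FOXO factors, for TGACGTCA, the cAMP response element, and for CACGTG, an E-box bound by many helix-loop-helix factors. Each sequence is written 5′ to 3′ on the strand of the gene, with matches in capitals.
Insr, chr12:6128804-6129053, minus strand: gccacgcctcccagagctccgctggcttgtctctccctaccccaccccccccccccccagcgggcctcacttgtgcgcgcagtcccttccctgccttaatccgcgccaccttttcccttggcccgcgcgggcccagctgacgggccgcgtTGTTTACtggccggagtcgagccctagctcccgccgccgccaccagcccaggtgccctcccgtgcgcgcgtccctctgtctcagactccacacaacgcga
Igf1r, chr1:130959747-130959996, plus strand: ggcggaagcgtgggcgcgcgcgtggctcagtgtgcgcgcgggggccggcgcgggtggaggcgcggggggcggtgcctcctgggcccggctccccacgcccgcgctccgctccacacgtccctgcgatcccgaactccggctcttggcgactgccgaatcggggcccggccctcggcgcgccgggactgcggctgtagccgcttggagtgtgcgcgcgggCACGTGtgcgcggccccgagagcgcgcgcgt
Igf2r, chr1:50526628-50526877, plus strand: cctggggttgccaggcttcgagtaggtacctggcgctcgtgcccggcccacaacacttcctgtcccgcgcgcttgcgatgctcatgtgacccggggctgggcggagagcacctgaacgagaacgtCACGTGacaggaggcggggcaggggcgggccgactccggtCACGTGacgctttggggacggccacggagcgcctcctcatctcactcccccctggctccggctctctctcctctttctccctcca

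In Insr the match was to the FOXO core, read on the opposite strand as TGTTTAC, from 100 to 94 bases before the start. Of all 33469 windows of the same length, 3.21% held this motif, and Insr was the only gene of the 9 with it. Igf1r held an E-box from 31 to 26 bases before the start, and Igf2r held a pair, from 125 to 120 and from 85 to 80 bases. Gsk3b held an E-box as well, from 195 to 190 bases before its start. E-boxes were found in 5.59% of all windows. No window of the 9 genes held the cAMP response element, which was in 1.59% of all windows. The receptor windows were rich in G and C, with 71.2% in Insr, 79.6% in Igf1r and 68% in Igf2r, against a median of 51.2% over all windows. These matches describe letters in a window, and factor binding was not measured.

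Igfbp4 had the largest difference of the 9 genes tested. It encodes a secreted protein that binds IGFs and holds them away from the receptor. Its level was 13.5 and 15.3 TPM in the 2D cultures and 23.2 and 26.8 TPM in the 3D cultures. The groups were well apart, with a 3D mean 1.74 times that in 2D (14.4 ± 1.23 TPM against 25.0 ± 2.55 TPM, SD, n = 2). Igfbp4 rose by 0.72 (standard error 0.11, adjusted p = 0.00812 in limma). Leaving out single cultures moved the difference between 0.60 and 0.83. The adjusted p was 0.0620 without the first 3D culture and 0.0603 without the second, the only settings of 12 in which the call was lost.

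Of the 8 binding protein genes listed, 5 were tested, and 3 rose and none fell, against 18.5% higher and 19.5% lower over all genes. Igfbp1, which is among the 3, lay below the minimum of 1 TPM in both 2D cultures. It was tested only through its 3D level, so the filter favoured a rise in it. Igfbp1, a binding protein whose gene is repressed by insulin in liver, went from 0.563 and 0.427 TPM to 1.67 and 1.87 TPM (difference 0.87, adjusted p = 0.00888 in limma), and a difference of 1.62 with 0.1 in place of the added 1 TPM. Igfbp7, a related protein with weak affinity for IGFs, had 35.7 and 43.9 TPM in 2D and 51.8 and 61.2 TPM in 3D (difference 0.45, adjusted p = 0.0490 in limma, and from 0.00352 to 0.218 over 12 other settings, 6 of which kept the call). Its difference was 0.27 without the first 2D culture. Igfbp3, the main carrier of IGFs in serum, and Igfbp5 had differences of -0.11 and 0.14 with adjusted p-values of 0.294 and 0.399 in limma. Igfbp2, Igfbp6 and Igfals were below 1 TPM in every culture. PAPP-A is a protease that cleaves IGFBP4 and so releases IGF. Its gene, listed as Pappa1, was at 0.00650 and 0 TPM in 2D and 0.0733 and 0.0630 TPM in 3D. Stc1, whose product stanniocalcin inhibits that protease, rose from 24.8 and 28.6 TPM to 57.8 and 66.4 TPM (difference 1.15, adjusted p = 0.00409 in limma). None of the 3 listed genes for proteins that bind Igf2 mRNA reached the minimum for testing.

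The adaptors Irs1 and Irs2 lay far apart in level. Irs2 had 40.2 and 35.1 TPM in the 2D cultures and 57.1 and 55.5 TPM in the 3D cultures. The groups did not overlap, and the 3D mean was 1.497 times the 2D mean (37.6 ± 3.66 TPM against 56.3 ± 1.13 TPM, SD, n = 2). Irs2 rose by 0.53 (standard error 0.067, adjusted p = 0.00589 in limma), and the call held in 11 of 12 other settings. It was lost without the first 3D culture, with an adjusted p of 0.0695, and the range over the 12 was 0.00177 to 0.0695. Irs1, the other widely used adaptor, had 0.638 and 0.408 TPM in 2D and 0.662 and 0.721 TPM in 3D. Both 3D cultures were above both 2D cultures, but the first 2D culture was close to the first 3D culture. Fitted without the filter on low values, Irs1 had a difference of 0.14 (adjusted p = 0.297 in limma). Irs2 was between 63.1 and 86.3 times as high as Irs1 in every culture. That ratio was 63.1 and 85.9 in 2D and 86.3 and 77.0 in 3D, and its groups overlapped (exact two-sided permutation p = 0.667, 0.800 adjusted). Irs3 stayed below 1 TPM in every culture.

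Pik3r1 encodes the main regulatory subunit of PI3K, which binds IRS proteins and holds the catalytic subunit. It had 16.05 and 13.8 TPM in the 2D cultures and 20.8 and 20.7 TPM in the 3D cultures. The 3D cultures were closer to each other than the 2D cultures and above both. Pik3r1 rose by 0.42 (standard error 0.074, adjusted p = 0.0118 in limma), and the call was lost on leaving out either 3D culture (adjusted p = 0.103 and 0.0773 in limma) and at an adjusted p threshold of 0.01. By transcript, ENSRNOT00000025687.7 rose from 9.72 and 9.25 TPM to 14.3 and 13.5 TPM (difference 0.47, adjusted p = 0.0242 in limma). ENSRNOT00000075057.1 had 6.32 and 4.502 TPM in 2D and 6.48 and 7.25 TPM in 3D (difference 0.27, adjusted p = 0.233 in limma). The share of the first in the gene was 60.6% and 67.3% in 2D and 68.8% and 65.0% in 3D, with no separation of the groups. Among the other PI3K subunits Pik3r2 rose by 0.27 (adjusted p = 0.0456 in limma, and up to 0.210 over 12 other settings), and the ratio of Pik3r1 to Pik3r2 overlapped between the groups (exact permutation p = 1). The catalytic subunit genes Pik3ca and Pik3cb had differences of 0.087 and -0.11 and were not called, and Pik3cd was listed at 0.

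Gsk3b encodes a kinase that AKT inhibits and that phosphorylates glycogen synthase and many transcription factors. It had 22.7 and 17.4 TPM in the 2D cultures and 31.2 and 29.6 TPM in the 3D cultures. The 2D cultures were further apart than the 3D cultures, and the groups did not overlap. Gsk3b rose by 0.54 (standard error 0.11, adjusted p = 0.0163 in limma). Its difference was 0.39 without the second 2D culture and 0.69 without the first. The call was lost without either 3D culture (adjusted p = 0.118 and 0.0769 in limma) and at an adjusted p threshold of 0.01. Both of its transcripts were higher in 3D in each culture. ENSRNOT00000077612.1 rose from 11.5 and 9.40 TPM to 17.2 and 16.04 TPM (adjusted p = 0.0267 in limma), while ENSRNOT00000003867.6, with 11.2 and 8.001 TPM in 2D and 13.97 and 13.6 TPM in 3D, did not pass (adjusted p = 0.0825). The paralog Gsk3a was more abundant, with 104 and 101 TPM in 2D and 94.4 and 91.2 TPM in 3D (difference -0.18, adjusted p = 0.0518 in limma, and 0.0484 when the minimum mean level was 5 TPM). The ratio of Gsk3b to Gsk3a was 0.219 and 0.173 in 2D and 0.330 and 0.324 in 3D, a separation with the smallest exact permutation p possible, 0.333 (0.5 adjusted).

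Foxo1 encodes a transcription factor that insulin signaling keeps inactive and that binds the motif found before Insr. It had 10.8 and 9.32 TPM in the 2D cultures and 15.3 and 17.1 TPM in the 3D cultures. Each 3D culture was well above each 2D culture, and the 3D mean was 1.61 times the 2D mean (10.1 ± 1.07 TPM against 16.2 ± 1.32 TPM, SD, n = 2). Foxo1 rose by 0.60 (standard error 0.085, adjusted p = 0.00748 in limma), and the adjusted p was 0.0628 and 0.0611 with the first and the second 3D culture left out. Of the other members of the family none rose. Foxo4 fell from 10.2 and 10.0 TPM to 7.25 and 6.64 TPM (difference -0.53, adjusted p = 0.00889 in limma), and Foxo3 and Foxo6 had differences of 0.23 and -0.19 (adjusted p = 0.153 and 0.197). Foxo1 stood level with Foxo4 in monolayer, at ratios of 1.06 and 0.929, and above it in 3D, at 2.11 and 2.58. The exact two-sided permutation p of this ratio is the smallest possible, 0.333 (0.5 adjusted).

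**Figure D3:**
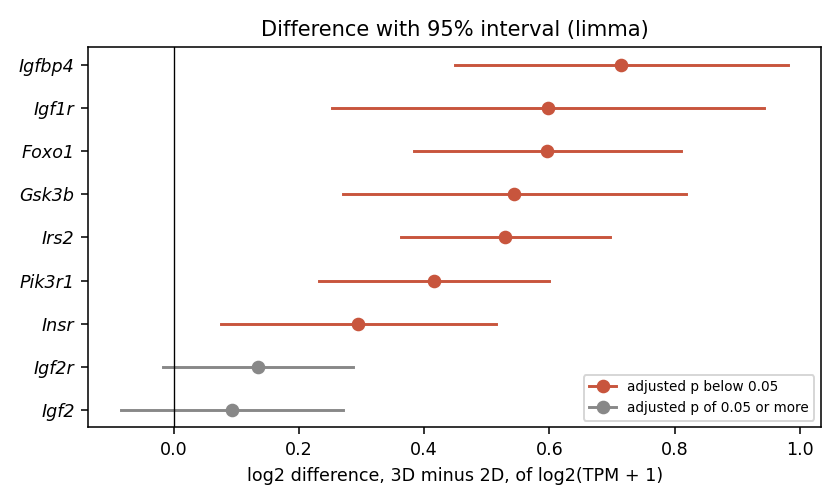
Difference of log2(TPM + 1), 3D minus 2D (x axis), of the 9 genes tested (y axis), with bars for the 95% interval from limma. Red marks an adjusted p below 0.05 and grey the rest. The intervals of Igf2 and Igf2r include 0, and Igfbp4 has the largest difference, 0.72.

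A list of 20 genes known as FOXO targets in one tissue or another was set beside Foxo1. Of these, 13 were tested, and 8 rose and none fell (9 higher and 0 lower at an unadjusted p below 0.05 in limma). Over all 11960 genes tested, 18.5% were called higher, and at an unadjusted p below 0.05 in limma 2989 were higher and 3068 lower. Igfbp1 and Ppargc1a, which are among the 8, averaged 0.495 and 0.866 TPM in 2D. They reached the minimum for testing only through their 3D levels, so the filter favoured a rise in them. With a minimum mean level of 5 TPM, 4 genes of the list were called higher, and 19.7% of all genes. The 4 were Irs2, Bcl2l11, Cited2 and Txnip. Insr, Rictor, Ppargc1a and Igfbp1, which averaged below 5 TPM, were not tested at that minimum. With the first 3D culture left out Txnip alone of the list was called, and with the second left out 4 were (Txnip, Irs2, Bcl2l11 and Ppargc1a). Insr and Irs2, both known as FOXO target genes, are among the 8. The others were Txnip, Bcl2l11, Ppargc1a, Igfbp1, Rictor and Cited2, named after their values had been seen. Ppargc1a, a coactivator of metabolic genes, went from 1.02 and 0.714 TPM to 3.54 and 2.94 TPM (difference 1.16, or 1.76 with 0.1 in place of the added 1 TPM, adjusted p = 0.00568 in limma). Txnip, a thioredoxin inhibitor that glucose also induces, went from 102 and 110 TPM to 247 and 238 TPM (difference 1.14, adjusted p = 0.00348 in limma). Cdkn1b and Sesn1, which are also listed FOXO targets, had differences of -0.12 and -0.13 and were not called. All of these genes have other regulators. The list gives no direction in which FOXO factors act on a gene, and an effect of Foxo1 on these genes was not tested.

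The wider pathway list held 67 further genes in the files, of which 53 were tested. In 3D 15 of them rose and 7 fell, and 31 were not called, against 18.5% higher and 19.5% lower over all genes. Their median difference was 0.18. With the 10 genes included, 22 rose and 7 fell. Without the first 3D culture none of them was called, without the second 3 rose and none fell, and without the first and second 2D culture 23 and 17 rose and 5 and 6 fell. Genes of this list with a difference under 0.5 in size are named below with their values known.

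Of 7 adaptors tested 3 rose, Irs2 among them, and 2 fell, against 18.5% higher and 19.5% lower over all genes tested. Sh2b2 and Sos1 rose, by 0.37 and 0.40 (adjusted p = 0.0174 and 0.0371 in limma), while Shc1 and Grb2, which couple receptors to RAS, fell by 0.27 and 0.22 (adjusted p = 0.0263 and 0.0266). The calls of Sos1 and Shc1 each held in 6 of 12 other settings, and the difference of Sos1 was 0.25 without the second 2D culture (adjusted p = 0.0760 in limma). None of the kinases between PI3K and the end of the AKT branch was called other than Gsk3b. Akt1 had 91.7 and 80.5 TPM in 2D and 76.5 and 79.7 TPM in 3D (difference -0.18, adjusted p = 0.0691 in limma, and 0.0430 without the second 2D culture). Pdpk1, the kinase that activates AKT, had 17.7 and 10.996 TPM in 2D and 20.2 and 21.9 TPM in 3D, and was not called (difference 0.52, adjusted p = 0.0723). It was called with the replicate number as a block (adjusted p = 0.0255) and without the first 2D culture (adjusted p = 0.0121, difference 0.80), and its difference was 0.23 without the second.

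Of 14 inhibitors of the pathway tested, 3 rose and 2 fell, where 18.5% of all genes tested were called higher and 19.5% lower. Socs6, Phlpp1, a phosphatase that acts on AKT, and Ptprf, a receptor phosphatase, rose by 0.42, 0.42 and 0.26 (adjusted p = 0.0108, 0.0151 and 0.0176 in limma). Grb14, which binds the insulin receptor and blocks its kinase, fell from 7.98 and 8.11 TPM to 5.63 and 5.999 TPM (difference -0.45, adjusted p = 0.0125 in limma), and Inppl1, a lipid phosphatase, fell by 0.32 (adjusted p = 0.0290).

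In the mTOR branch 5 of 12 genes tested rose and 1 fell, against 18.5% higher and 19.5% lower over all genes tested. Rictor, the subunit that defines mTOR complex 2, had the largest difference, from 3.19 and 2.18 TPM to 5.71 and 5.61 TPM (0.84, adjusted p = 0.0101 in limma). Rps6kb2, an S6 kinase, rose from 30.1 and 29.6 TPM to 41.8 and 45.5 TPM (0.49, adjusted p = 0.00611 in limma). Deptor and Tsc1, which restrain mTOR, rose by 0.50 and 0.42 (adjusted p = 0.0334 and 0.0240 in limma). Rps6kb1, another S6 kinase, rose by 0.22 (adjusted p = 0.0454 in limma), a call that held in 4 of 12 other settings and was lost with the replicate block (0.0505). The difference of Deptor was 0.30 without the second 2D culture. Rheb, the GTPase that switches on mTOR complex 1, fell by 0.26 (adjusted p = 0.0194 in limma), and Mtor itself had a difference of -0.028 (0.0093 without scaling between samples) and was not called.

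**Figure D4:**
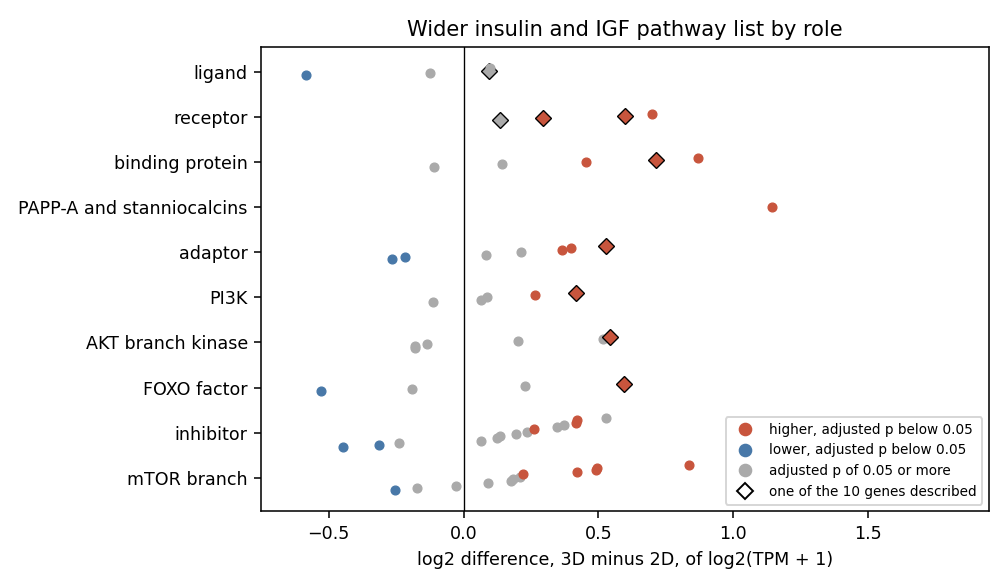
Difference of log2(TPM + 1), 3D minus 2D (x axis), of every tested gene of the wider list by role (y axis), where vertical offsets within a role only separate points. Red points rose and blue points fell at an adjusted p below 0.05, grey points were not called, and black-edged diamonds are the 9 tested genes of the 10. In the inhibitor, adaptor, FOXO and mTOR groups red and blue points occur together.

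**Figure D5:**
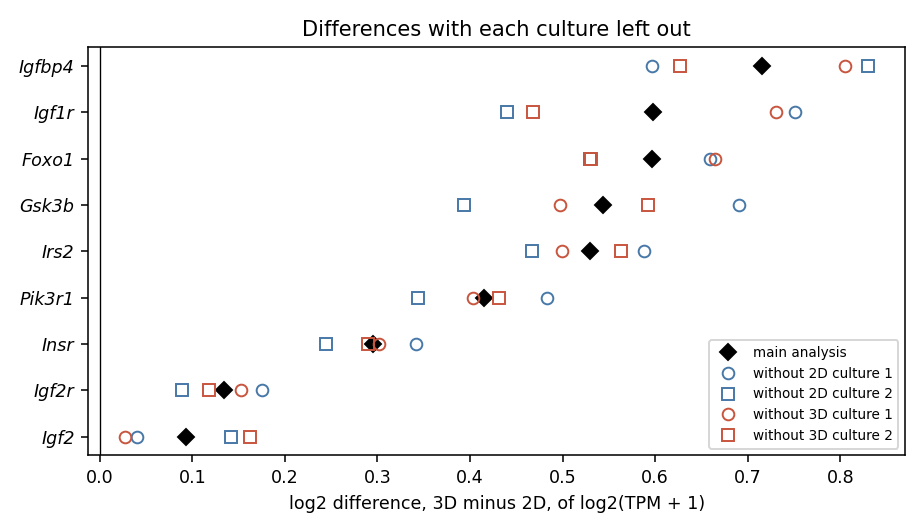
Difference of log2(TPM + 1), 3D minus 2D (x axis), of the 9 genes tested (y axis). Black diamonds use all 4 cultures, blue symbols leave out a 2D culture and red symbols a 3D culture (circle for culture 1, square for culture 2). All points lie above 0, and those of Igf1r spread widest among the receptors, from 0.44 to 0.75.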

How the data were processed

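Single-end reads of 75 bp from stranded mRNA libraries were quantified per transcript by the authors with Salmon 1.2, after FastQC 0.11.8, and deposited as TPM. The study names rn4 plus the human insulin sequence as the reference, which was not checked here. The values are written with decimal commas. Parsed that way, TPM add up to 1000000 in all 4 samples and none is negative. The counts behind the DESeq2 test of the study's methods were not used here. The sources used here do not say whether the cultures came from separate experiments beyond calling them biological replicates, so p-values measure only the spread between these cultures.

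Gene levels are sums over the transcripts of a symbol. Those averaging 1 TPM or more were scaled with the TMM procedure, without weights (trimming 30% by M and 5% by A on either side), and fitted as log2(TPM + 1) with limma 3.58.1 (empirical Bayes with trend) in R 4.3.3. Transcripts were fitted the same way with the gene-level factors. Intervals are at 95%. On simulated TPM for this comparison (11962 genes fitted), 99 of 100 genes changed by 0.5 and all 97 changed by 1 on the log2 scale were called, and 6.67% of calls were of unchanged genes. In the simulation, genes of like level shared the same spread and few genes were changed, where 38.0% were called in the data. These shares therefore give no power or error rate for the real cultures.

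The 10 genes and the lists were chosen with earlier results of these data known. Named were all 10 genes, the ligands and binding proteins, and genes of the wider list called with a difference of at least 0.5; exceptions are marked. Symbols were matched through older names in the RefSeq table (Pappa as Pappa1), and Irs4 had no match. Promoter windows came from RefSeq on GRCr8, and no coordinate of the files' build was used. Alternatives were the scaling, pseudocount, filter, empirical Bayes trend, replicate block, threshold and each culture left out.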

Additional observations from a re-analysis of the deposited data

How the results depend on the processing

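The number of the 10 genes called higher was 7 in the analysis reported, between 5 and 7 with another scaling, pseudocount, filter or empirical Bayes option, and 0 were called lower in any setting. With an adjusted p below 0.01, 3 of the 10 genes (Igfbp4, Irs2 and Foxo1) were called higher. In the wider list 7 genes were higher and 2 lower, and 0 of the transcripts were called. Over all 11960 genes tested, 724 (6.05%) were called higher at that threshold and 694 lower. When single cultures were left out, the number of the 10 genes called higher ran from 0 to 6, that of the wider list from 0 to 23 higher and from 0 to 6 lower, and that of transcripts from 0 to 6. Such a fit leaves 1 culture in a group, which is assumed to vary like the other group. The FOXO target genes were tested in these settings after the data had been seen, and 8 were higher in the analysis reported, 5 with an adjusted p below 0.01, 4 with a mean TPM of at least 5 and from 1 to 8 with single cultures left out. Changes of sign were found in Mtor (0.0093 with no scaling, and from -0.085 to 0.032 with single cultures left out), Ins1 (from -0.015 to 0.21) and the Igf2 transcripts ENSRNOT00000050760.3 (from -0.13 to 0.25) and ENSRNOT00000073850.3 (from -0.15 to 0.063). None of these 4 was called in any setting.

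The sources used here do not say whether same-numbered cultures were set up together. Deviations from the group means of same-numbered cultures had a correlation of -0.00601 across genes, which cannot show whether they were. Blocking on the replicate number called 6 of the 10 genes, without Insr, and 23 genes of the wider list higher and 7 lower. The block called 4814 of all genes tested, against 4541 without it. The share called higher was 20.5% with the block and 18.5% without it. TPM keep no depth, so detection limits cannot be given, and precision is that of 2 cultures in each group.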
